A study of Mus musculus with 8 samples.

Results

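The region described here is a window of 320 kb on mouse chromosome 15 around Trib1 (build mm9, chr15:59380000-59700000). Trib1 lies at about 59479900 to 59488700 on the plus strand, so the window reaches 99.9 kb upstream of the gene and 211.3 kb downstream. Every peak of C/EBPα that 8 deposited lists place in the window was taken, and peaks of different libraries that overlapped were joined into sites. This gave 76 sites, of 113353 in the whole series.

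The lists come from chromatin immunoprecipitation and sequencing (ChIP-seq) of C/EBPα in mouse liver, with 2 libraries in each of 4 groups. In the first experiment, Trib1 flox/flox mice received an adeno-associated virus (AAV) that carried Cre recombinase (group Trib1_LSKO) or no gene (AAV_Null, group Trib1_WT), at 1.5e11 gc. In the second, C57B/6 mice with intact Trib1 received AAV_Cebpa, which supplies C/EBPα, or AAV_Null, at 1e12 gc. All mice were 8 to 10 weeks old, ate chow and were fasted for 4 hours, and the sources used here do not give the promoter of either vector. Trib1_WT mice thus carry the floxed allele too, and both control groups carry an empty AAV at different doses. The extent of the floxed segment within Trib1 is not given in the sources used here, and the labels do not tie a library to a separate animal, so the spread between libraries may be technical.

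Trib1 encodes Tribbles-1, a pseudokinase without substantial catalytic activity. It acts as a scaffold that brings the ubiquitin ligase COP1 to C/EBPα, which marks C/EBPα for degradation by the proteasome. C/EBPα itself is a basic leucine zipper transcription factor that binds enhancers and promoters of hepatocyte genes, including many of glucose and lipid metabolism. The comparisons here ask how C/EBPα occupancy around Trib1, the gene of its own negative regulator, compared between livers in which Trib1 was targeted or C/EBPα was supplied and their controls. The files give no levels of RNA or protein, and Trib1 expression and the amount of C/EBPα were not measured. The nearest genes of RefSeq's GRCm38.p6 table are Nsmce2 and the long noncoding RNA Gm36677 before Trib1, and the pseudogene Gm20150 and the long noncoding RNA Gm19510 after it. That table uses a later build, so no site was assigned to an exon, an intron or a neighbouring gene.

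A site's strength is given as its percentile within a list, in which 100 is the strongest peak of that library. The deposited values were whole multiples of a step that differed between libraries, and that multiple is called the number of tags (aligned reads) here. Lists held 46348 to 80394 peaks. The depth relative to the shallowest library, AAV_Null replicate 1, was 1.85 and 2.27 in AAV_Cebpa and 1.17 in AAV_Null replicate 2. In the first experiment it was 1.18 and 1.28 for Trib1_LSKO and 1.14 and 1.93 for Trib1_WT. The weakest peak of a list had 7 to 12 tags and the strongest 328 to 397, so the strongest peaks varied less between libraries than the depth did. Tags of strong sites may therefore be compressed in the deeper libraries, and neither tags nor tags scaled to depth compare such sites between groups on an equal footing. Tags are printed as counted unless they are called scaled, which means divided by the relative depth. A site that is not listed had no peak that passed the authors' calling, which does not show that C/EBPα was absent. In liver tissue, fewer bound cells and weaker binding per cell cannot be told apart.

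More C/EBPα peaks were listed around Trib1 in both treated groups than in their controls. The window held 40 and 42 peaks in Trib1_WT replicates 1 and 2, and 52 and 54 in Trib1_LSKO. It held 33 and 37 peaks in AAV_Null, and 55 and 66 in AAV_Cebpa. The groups did not overlap in either experiment.

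Scaled to list length, Trib1_LSKO had 10.28 ± 0.15 peaks in the window per 10000 listed and Trib1_WT 7.59 ± 0.13 (SD, n = 2 each), a difference of 2.69. An exact two-sided permutation test gave p = 0.333, the smallest that 2 libraries against 2 can reach. AAV_Cebpa had 8.72 ± 0.72 and AAV_Null 7.33 ± 0.30 per 10000, a difference of 1.39 with the same exact permutation p of 0.333. The AAV_Cebpa libraries were the deeper ones of their experiment. With all lists reduced to the 46348 strongest peaks, the window held 54 and 57 peaks in AAV_Cebpa and 33 and 37 in AAV_Null, and 51 and 53 in Trib1_LSKO against 39 and 40 in Trib1_WT. Within 50 kb of the gene the difference of AAV_Cebpa turned to -0.13 per 10000, while that of Trib1_LSKO was 0.53.

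**Figure D1:**
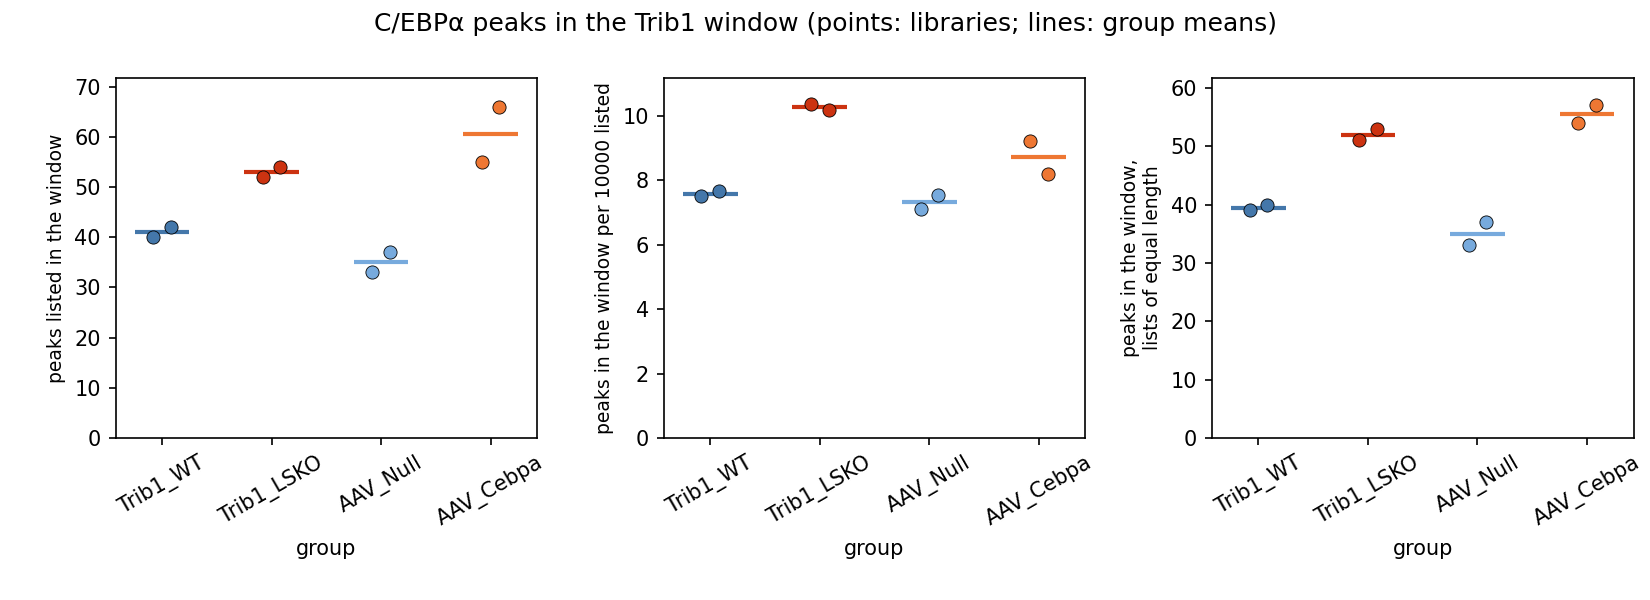
Peaks in the Trib1 window by group: number listed, number per 10000 listed peaks, and number after reducing every list to the same length. Points are libraries and lines are group means of 2, and in all 3 panels both treated libraries lie above both controls of their experiment, for instance 52 and 54 against 40 and 42 listed peaks for Trib1_LSKO and Trib1_WT.

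Of the 76 sites, 28 were called in all 8 libraries (36.8%, against 21.5% of all sites of the series) and 13 in a single library (17.1%, against 27.1%). AAV_Cebpa replicate 2, the deepest library, accounted for 11 of those 13, at percentiles of 0.3 to 86.2. The sites were unevenly placed, with 17 upstream of the gene, 3 inside it and 56 downstream. Among sites called in all 8 libraries, the numbers were 7, 3 and 18. Sites were 200 to 380 bp wide, with a median of 224 bp.

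**Figure D2:**
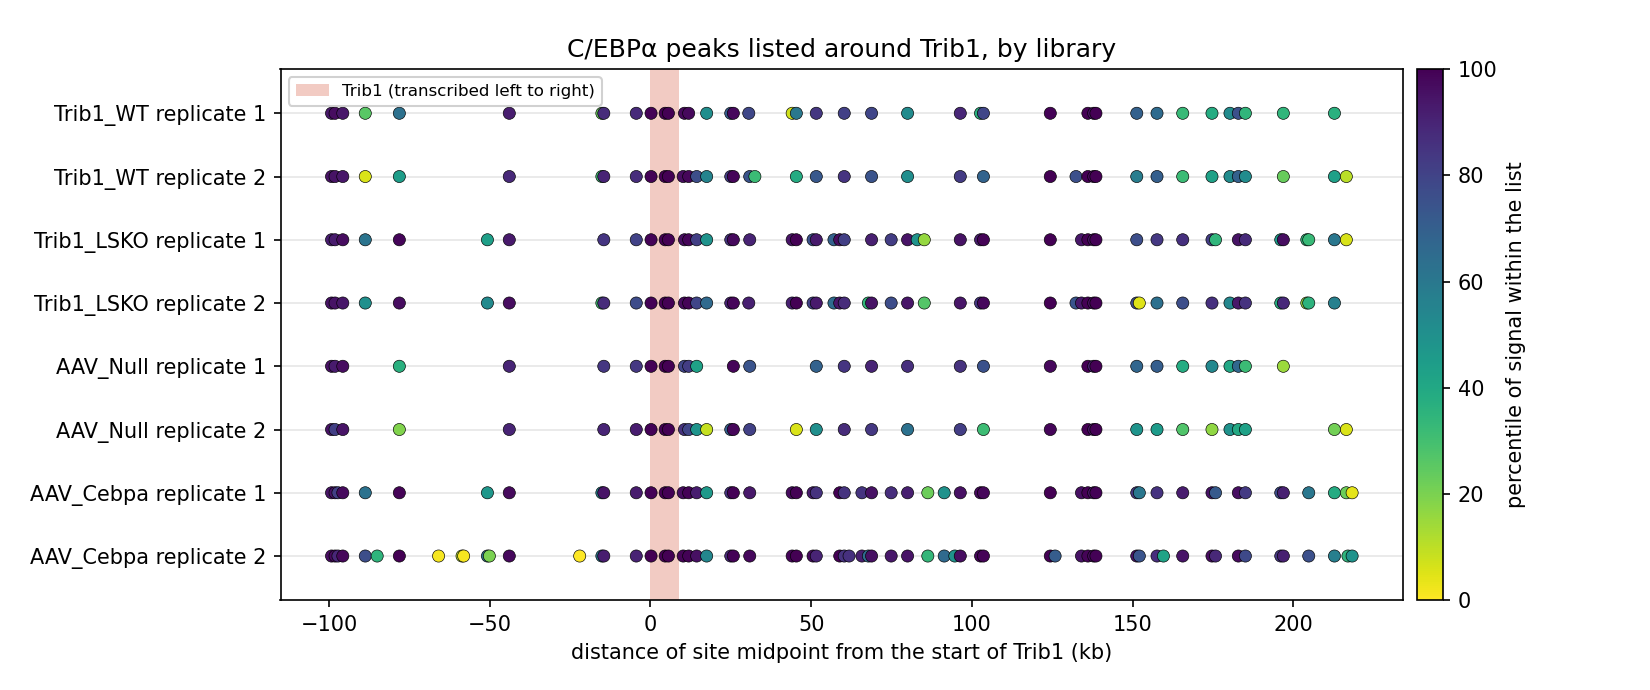
Position of the C/EBPα peaks around Trib1 in the 8 libraries. The horizontal axis is the distance from the start of Trib1 in kb, each point is a listed peak, darker points are stronger within their own list, and the shaded band is Trib1. The 3 sites in the gene are dark in every row, and the region about 45 to 90 kb after the gene start is more densely filled in Trib1_LSKO and AAV_Cebpa than in the control rows.

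The gene itself carried 3 C/EBPα sites that were near the top of every list. The first, chr15:59479991-59480198, has its midpoint about 0.2 kb inside the start of Trib1. It had 177 and 208 tags in Trib1_LSKO against 224 and 282 in Trib1_WT, 241 and 318 in AAV_Cebpa against 227 and 247 in AAV_Null, and its percentile was 99.2 to 99.7 throughout. Scaled to depth, these tags were 149.7 and 162.8 against 197.0 and 146.3, and 130.6 and 140.1 against 227.0 and 211.8. The strongest peak of a list had 328 to 397 tags whatever its depth, so scaling lowers strong sites most in the deepest libraries. These scaled values therefore cannot show whether occupancy differed between the groups. The other two lie at chr15:59484372-59484606 and chr15:59485402-59485633, about 4.6 and 5.6 kb from the gene start. The one at 4.6 kb ranked 86 and 78 among the peaks of Trib1_LSKO against 10 and 32 in Trib1_WT, and 165 and 236 in AAV_Cebpa against 35 and 39 in AAV_Null. It had 212 and 235 tags in Trib1_LSKO against 285 and 332 in Trib1_WT, and 247 and 318 in AAV_Cebpa against 272 and 297 in AAV_Null. The one at 5.6 kb ranked 27 and 21 among the peaks of Trib1_LSKO against 8 and 2 in Trib1_WT, and 195 and 208 in AAV_Cebpa against 90 and 15 in AAV_Null. It was the strongest of the window in 5 of the 8 libraries. Its tags numbered 229 and 259 in Trib1_LSKO against 286 and 370 in Trib1_WT, and 243 and 322 in AAV_Cebpa against 251 and 311 in AAV_Null. Scaled to depth, the tags of both sites overlapped between the Trib1 groups. They were 131.7 to 141.9 in AAV_Cebpa and 251.0 to 272.0 in AAV_Null. The same limit on strong sites in deeper libraries applies, so no fall in occupancy can be read from these values.

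All 3 sites in the gene kept a peak in each Trib1_LSKO library, with percentiles from 99.2 to 100. They give no check of the deletion, because the floxed segment's position is not given. Their ranks among the sites called in all 4 libraries of the experiment differed from Trib1_WT by -0.2, -0.2 and -0.1 points. Such a difference, if real, could not tell fewer alleles carrying these sites from weaker binding.

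Near the gene, on the upstream side, the closest site lay 4.4 kb before the start (chr15:59475403-59475623). Its percentiles were 80.4 and 77.2 in Trib1_LSKO against 88.0 and 87.2 in Trib1_WT, and 92.2 and 90.4 in AAV_Cebpa against 83.7 and 91.8 in AAV_Null. Both Trib1_LSKO libraries lay below both Trib1_WT libraries at this site, and the AAV_Cebpa and AAV_Null values overlapped.

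Downstream, 3.1 kb after the gene end, the site chr15:59491707-59491930 was called in all libraries. Its percentiles were 98.6 and 99.1 in Trib1_LSKO against 97.8 and 98.1 in Trib1_WT, and 99.3 and 99.5 in AAV_Cebpa against 82.4 and 79.3 in AAV_Null. The AAV_Null values stood apart from the other 6. At 5.6 kb (chr15:59494189-59494416) the percentiles were 42.3 and 48.2 in AAV_Null against 92.0 and 95.8 in AAV_Cebpa. That site was also listed in Trib1_WT replicate 2 at 76.5 and in Trib1_LSKO at 81.4 and 79.0, but not in Trib1_WT replicate 1. The site at 8.7 kb (chr15:59497289-59497516) was of middling rank, from 46.1 to 65.8 in the 6 libraries other than AAV_Null, with 8.6 in AAV_Null replicate 2 and no peak in replicate 1.

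At a pair of neighbouring positions just after the gene end, the listed position differed between libraries. Libraries listed either chr15:59490004-59490236, 1.4 kb after the end, or chr15:59490430-59490646, 1.8 kb after it, and none listed both. The nearer one was called in Trib1_WT replicate 2 and in both AAV_Cebpa libraries, at percentiles of 96.5, 96.6 and 99.0. The farther one was called in the other 5 libraries, at 96.1 and 96.9 in Trib1_LSKO, 97.7 in Trib1_WT replicate 1, and 79.3 and 85.7 in AAV_Null. By the call rule these count as 1 site gained and 1 lost in AAV_Cebpa, although each library had a peak at one or the other position. Whether they are 1 bound site or 2 was not tested. Their midpoints are 418 bp apart, and midpoints within a list were rarely closer than 400 bp (12 to 26 such pairs in a list, with the smallest distance 263 to 376 bp). A second pair, 286 bp apart at 21.8 and 22.1 kb after the gene, likewise had 1 of its 2 positions called in each of the 8 libraries. The nearer position was called in Trib1_WT replicate 1 at 78.7 and in Trib1_LSKO replicate 2 at 91.1, and the farther one in the other 6 at 74.1 to 98.0.

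The Trib1_LSKO livers had C/EBPα sites around the gene that neither Trib1_WT list held. A site counts as gained if the 2 treated lists hold a peak at it and the 2 control lists do not, and as lost if the reverse holds. In Trib1_LSKO, 10 of the 76 sites were gained, which is 13.2%, and 0 were lost. Over all sites of the series, 3.15% were gained and 3.23% lost by the same rule, and on chromosome 15 the shares were 3.51% and 3.11%. With tags thinned to the depth of the shallowest library, the window again had 10 gained and 0 lost sites. Thinning can only remove listed peaks, not add ones missing from a list. It left 40 and 41 peaks of the window in Trib1_WT and 52 and 54 in Trib1_LSKO. Single sites were not tested, and an exact permutation of 2 libraries against 2 cannot give a p below 0.333.

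The strongest of the gained sites was chr15:59538695-59538934, 50.1 kb downstream of the gene. It had 134 and 131 tags in the 2 Trib1_LSKO libraries (percentiles 96.7 and 94.0) and 250 and 358 in AAV_Cebpa (99.8 and 100), and it was listed in none of the 4 control libraries. In AAV_Cebpa replicate 2 it was the strongest site of the window and ranked 20 of 80394 peaks.

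Next came chr15:59613931-59614142, 125.3 kb downstream, with 113 and 128 tags in Trib1_LSKO and 168 and 225 in AAV_Cebpa. The percentiles were 93.9 and 93.5, then 96.0 and 95.1. Another, chr15:59554658-59554885 at 66.1 kb, had 72 and 70 tags in Trib1_LSKO (percentiles 82.3 and 76.8) and 114 and 212 in AAV_Cebpa (86.9 and 93.7). The next, chr15:59530359-59530571 at 41.8 kb, had 58 and 79 tags (75.0 and 80.7) and 142 and 257 (92.7 and 97.6). Like the strongest one, these 3 had no peak in any control library.

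The other gained sites of Trib1_LSKO were weaker. The site 50.7 kb upstream (chr15:59429051-59429276), the single one on that side, had percentiles of 43.8 and 52.6 in Trib1_LSKO and 47.2 and 62.8 in AAV_Cebpa. Those 187.3 and 196.0 kb downstream (chr15:59675892-59676113 and chr15:59684536-59684779) had 45.4 and 37.5, and 32.5 and 35.8, in Trib1_LSKO. The same 2 sites had 76.7 and 83.7, and 60.2 and 75.5, in AAV_Cebpa. A last 3 were called in the Trib1_LSKO libraries alone. At 48.3 kb downstream (chr15:59536853-59537057) the percentiles were 69.3 and 65.1, at 76.4 kb (chr15:59564971-59565193) 15.7 and 26.9, and at 195.4 kb (chr15:59683913-59684200) 34.5 and 15.9.

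As a set, the 10 sites lay at median percentiles of 57.4 and 58.8 in Trib1_LSKO replicates 1 and 2. All sites gained in Trib1_LSKO across the series had medians of 30.2 and 26.9 there. None of the 10 lay within 10 kb of the gene, but few of the 76 sites are there, so this does not show a dependence on distance. Of the 10, 9 were downstream, where 56 of the 76 sites are.

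With AAV_Cebpa, 19 sites of the window were gained and 2 lost, 25.0% and 2.63% of its sites. In the whole series 19.5% were gained and 5.33% lost, so the gained share of the window is close to the background. The 19 sites had median percentiles of 76.7 and 89.0 in the AAV_Cebpa lists, against 34.6 and 49.9 for all sites gained with AAV_Cebpa.

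A pair of the sites gained with AAV_Cebpa were strong in its lists and also strong in Trib1_LSKO. At 35.3 kb downstream (chr15:59523893-59524115), AAV_Cebpa had 181 and 275 tags (percentiles 97.2 and 98.6) and Trib1_LSKO 120 and 115 (94.9 and 91.3). Trib1_WT replicate 1 had 11 tags there (7.3), and the other 3 control lists held no peak. At 93.9 kb (chr15:59582467-59582698) the AAV_Cebpa percentiles were 97.4 and 98.8 and those of Trib1_LSKO 92.4 and 84.1. The only control value was 36.6, in Trib1_WT replicate 1. Both sites miss the call of gained in Trib1_LSKO through that 1 weak peak.

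Upstream, chr15:59391112-59391358, 88.7 kb from the gene, was listed in AAV_Cebpa at 62.4 and 76.4, in Trib1_LSKO at 61.4 and 50.2 and in Trib1_WT at 25.8 and 5.6. At 15.1 kb upstream (chr15:59464704-59464931) the percentiles were 57.8 and 60.5 in AAV_Cebpa, 23.2 and 30.9 in Trib1_WT, and 30.5 in Trib1_LSKO replicate 2 alone. This site therefore did not separate Trib1_LSKO from Trib1_WT.

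Others were listed in AAV_Cebpa alone, the group with the longest lists. These 5 sites were listed in no library outside that group. They lay 97.2 kb upstream (chr15:59382554-59382756, percentiles 81.3 and 89.3) and 57.0, 77.5, 82.6 and 209.5 kb downstream. The one at 57.0 kb (chr15:59545573-59545778) had 84.9 and 91.7. The remaining 3 were weaker, with 22.5 and 33.9 at 77.5 kb (chr15:59566063-59566272), 49.4 and 66.0 at 82.6 kb (chr15:59571213-59571425), and 4.2 and 48.6 at 209.5 kb (chr15:59698082-59698315). With lists of equal length, the sites at 77.5 and 209.5 kb were left in 1 library each and were no longer gained. The mean percentile of the site at 82.6 kb then fell from 57.7 to 38.0. A further 2 sites had a peak in a single Trib1_LSKO library besides AAV_Cebpa. At 143.3 kb (chr15:59631880-59632092), AAV_Cebpa had 60.2 and 74.2 and Trib1_LSKO replicate 2 had 4.9. At 167.0 kb (chr15:59655631-59655859), AAV_Cebpa had 71.9 and 89.0 and Trib1_LSKO replicate 1 had 34.5.

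Only 1 of the lost sites is not part of a pair of neighbouring positions. This is chr15:59660063-59660323, 171.5 kb downstream, with percentiles of 40.4 and 49.4 in AAV_Null, 52.2 and 51.6 in Trib1_WT and 53.8 in Trib1_LSKO replicate 2. Neither AAV_Cebpa library nor Trib1_LSKO replicate 1 listed it. The second lost site is the one of the pair 1.4 and 1.8 kb after the gene, and with windows of 500 bp around each peak, which join that pair, 18 sites were gained and 1 was lost.

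**Figure D3:**
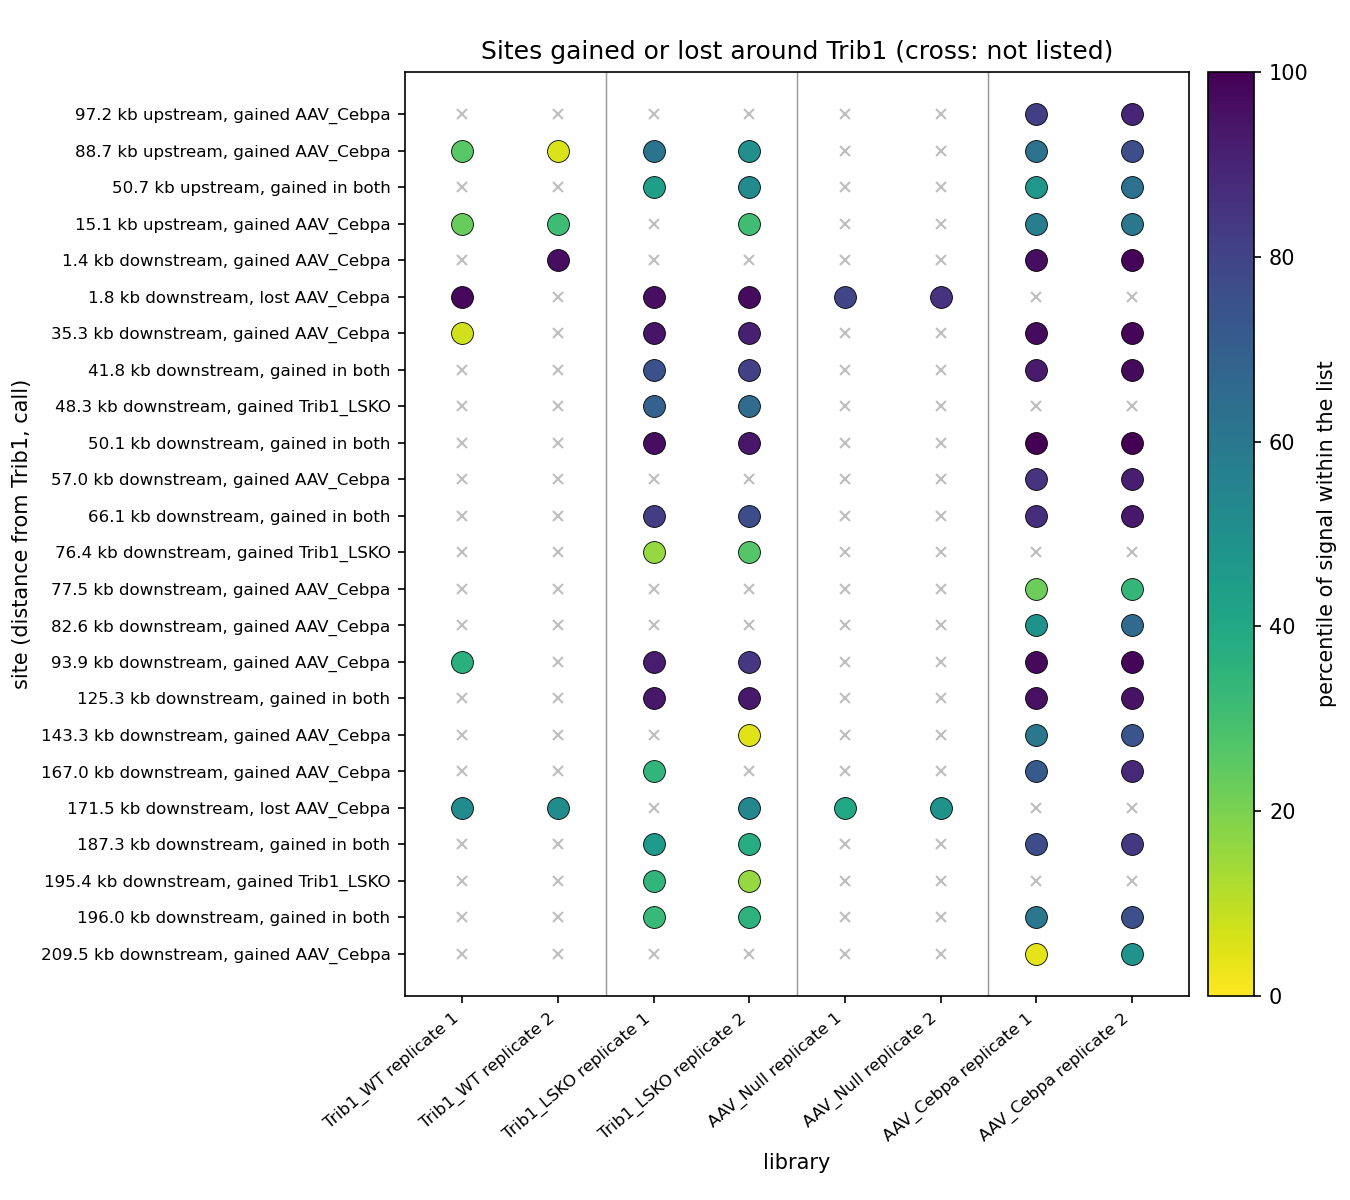
The 24 sites called gained or lost in either experiment, in order along the chromosome, with their percentile in each library. Circles are listed peaks, darker when stronger within the list, and crosses mark libraries with no peak. The 7 sites gained in both experiments have 4 circles each, in the Trib1_LSKO and AAV_Cebpa columns, and 4 crosses in the control columns.

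The same 7 sites were gained in both experiments, 9.21% of the window against 1.62% of all sites in the series. The 2 experiments have separate controls. They make up 7 of the 10 gained in Trib1_LSKO (70.0%, against 51.3% over the series), and the other 3 were in neither AAV_Cebpa library, as were 17.4% over the series. They are 36.8% of the 19 gained with AAV_Cebpa, against 8.28%. Of those 19, 13 were listed in at least 1 Trib1_LSKO library (68.4%, against 37.7%) and 5 in at least 1 Trib1_WT library (26.3%, against 25.5%). In Trib1_LSKO but in no Trib1_WT library there were 9 (47.4%, against 17.3%). The 7 shared sites had median percentiles of 75.0 and 76.8 in Trib1_LSKO and 86.9 and 93.7 in AAV_Cebpa. Across the series, sites gained in both had medians of 34.5 and 30.5, then 57.0 and 68.1. No site of the window was lost in both (0.534% of the series).

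Sites that all libraries of an experiment share were also compared by rank. Percentiles from lists of different length are not comparable, so each site was ranked among the sites called in all 4 libraries of its experiment, the same set in every library (34866 sites for the first, 27702 for the second). A site is called higher when both treated libraries ranked it above both controls.

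In the first experiment the window had 34 such sites. Both Trib1_LSKO libraries ranked 19 of them higher (55.9%, against 22.8% of the series) and 5 lower (14.7%, against 32.0%). The median difference in rank was 8.8 percentile points in the window and -1.7 over all sites. By over 20 points, 13 sites were higher (38.2%, against 8.69%) and 0 lower (against 4.76%). The 5 lower sites included 2 in the gene, with differences of -0.1 and -0.2 points, and the one 4.4 kb upstream, with -11.5 points.

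In the second experiment the window had 30 shared sites. AAV_Cebpa ranked 20 higher (66.7%, against 30.6%) and 6 lower (20.0%, against 40.3%), with a median difference of 12.8 points against -2.1 over all sites. By over 20 points, 13 were higher (43.3%, against 16.1%) and 0 lower (against 16.0%). The 6 lower sites had differences of -0.5 to -6.9 points, and 2 of them lie in the gene.

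The largest difference of the first experiment in the window was 188.1 kb downstream, at chr15:59676671-59676888. It had 21 and 26 tags in Trib1_WT against 129 and 102 in Trib1_LSKO, with ranks of 16.5 and 8.5 against 94.5 and 82.3. The scaled tags were 18.5 and 13.5 against 109.1 and 79.8. The site was also listed in AAV_Null replicate 1, with 13 tags, and in AAV_Cebpa with 133 and 194. At 36.6 kb downstream (chr15:59525136-59525369), Trib1_WT had 39 tags in each library and Trib1_LSKO 199 and 218, with ranks of 42.9 and 20.4 against 99.6 and 99.5. AAV_Null had no peak there in replicate 1 and 12 tags in replicate 2, and AAV_Cebpa had 246 and 330. Scaled, the tags were 34.3 and 20.2 in Trib1_WT and 168.3 and 170.6 in Trib1_LSKO. In all 4 treated libraries this site was at percentile 99.7 or 99.8 of the whole list.

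Upstream, the clearest case lay 78.1 kb from the gene (chr15:59401658-59401900). It had 159 and 154 tags in Trib1_LSKO against 42 and 45 in Trib1_WT, and 209 and 323 in AAV_Cebpa against 21 and 17 in AAV_Null. The scaled tags were 134.4 and 120.5 against 36.9 and 23.3, and 113.3 and 142.3 against 21.0 and 14.6. Its rank among shared sites went from 46.4 and 25.9 to 97.9 and 95.0 in the first experiment, and from 19.1 and 7.0 to 97.6 and 99.3 in the second, the largest difference of that experiment in the window (85.4 points). The site at 71.2 kb downstream (chr15:59559688-59560067) ranked at 33.7 and 32.0 in Trib1_WT and 92.3 and 91.5 in Trib1_LSKO. Its ranks in AAV_Null were farther apart, 78.0 and 43.6, with 83.3 and 86.4 in AAV_Cebpa.

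Some sites at the far downstream end shared the pattern, but the site at 171.5 kb, which lies among them and was lost in AAV_Cebpa, did not. At 156.8, 165.9 and 174.1 kb, Trib1_WT ranks were 14.7 to 63.3 and Trib1_LSKO ranks 64.9 to 92.9. AAV_Null ranks at the same 3 sites were 5.8 to 49.8 and AAV_Cebpa ranks 84.6 to 93.3. At 94.8 kb (chr15:59583365-59583580) the ranks were 68.6 and 53.3 against 98.5 and 96.7, and 61.1 and 15.0 against 96.0 and 97.8.

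Smaller differences were seen at sites of intermediate strength. The site 43.9 kb upstream (chr15:59435929-59436148) ranked at 90.0 and 95.2 in Trib1_LSKO against 87.7 and 81.8 in Trib1_WT, and at 95.1 and 93.9 in AAV_Cebpa against 83.2 and 82.7 in AAV_Null. At 60.0 kb downstream (chr15:59548551-59548769) the ranks were 87.4 and 92.7 against 69.2 and 61.2, and 90.7 and 89.3 against 83.5 and 72.1. At 87.6 kb (chr15:59576163-59576401) they were 93.1 and 91.5 against 83.9 and 73.4, and 91.5 and 90.4 against 76.8 and 69.1. In all 3 the treated libraries ranked above the controls of both experiments.

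The same order held 42.8, 142.5 and 176.3 kb downstream. The ranks at 176.3 kb (chr15:59664830-59665083) were 83.0 and 78.2 in Trib1_LSKO against 16.5 and 32.9 in Trib1_WT, and 69.0 and 53.4 in AAV_Cebpa against 15.7 and 23.9 in AAV_Null. It was the site among these at which AAV_Cebpa ranked lowest.

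Elsewhere the groups overlapped or the experiments differed. At 14.5 kb upstream (chr15:59465332-59465546) the groups were not separate by rank in either experiment. The ranks were 78.5 and 81.5 in Trib1_LSKO against 81.5 and 84.6 in Trib1_WT. In the second experiment they were 89.7 and 80.9 in AAV_Cebpa against 74.1 and 82.7 in AAV_Null. All 8 libraries lay between list percentiles 84.0 and 94.9, with AAV_Cebpa (94.9 and 92.1) above AAV_Null (84.0 and 90.1). At 148.8 kb downstream (chr15:59637405-59637649), Trib1_LSKO ranked at 76.9 and 47.6 and Trib1_WT at 49.7 and 55.2, while AAV_Cebpa ranked at 72.6 and 69.9, above AAV_Null at 54.6 and 26.3. At 51.5 kb (chr15:59540052-59540269) the Trib1 groups overlapped and AAV_Cebpa ranked below AAV_Null, at 73.1 and 66.9 against 75.1 and 78.7.

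A few positions were called in 1 to 4 libraries with no order by group. Trib1_WT replicate 2 alone had a peak 23.7 kb downstream, at percentile 32.0, and Trib1_LSKO replicate 1 alone one at 74.2 kb, at 48.6. At 123.6 kb, Trib1_WT replicate 2 and Trib1_LSKO replicate 2 had peaks at 75.5 and 73.6. At 59.0 kb, Trib1_LSKO replicate 2 and AAV_Cebpa replicate 2 had peaks at 34.1 and 65.5. At 207.7 kb, 1 library of each group had a peak, at percentiles of 5.6 to 22.5.

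The 10 sites with the highest mean percentile over the 8 lists had differences in rank of -2.6 to 3.5 points in either experiment, a choice that favours sites which do not differ. Besides the 3 in the gene, they are chr15:59615876-59616114, 127.3 kb downstream, at percentiles of 99.1 to 100 in the 8 lists, and chr15:59618336-59618568 and chr15:59604237-59604461, 129.8 and 115.6 kb downstream, at 99.5 to 99.9 and 98.0 to 99.9. These are close to the top of every list, where a higher rank can hardly be measured. The same holds less closely for 17.0 kb (chr15:59505581-59505790), at 97.5 to 99.4, for 129.1 kb (chr15:59617634-59617873), at 91.1 to 98.0, and for the far upstream sites at 99.2 and 95.7 kb (chr15:59380628-59380852 and chr15:59384111-59384335), at 91.8 to 96.1 and 94.0 to 98.2. The next sites by mean percentile differed more in the second experiment, by 29.9 points at 3.1 kb downstream and by 13.4 points at 98.1 kb upstream (chr15:59381664-59381902).

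**Figure D4:**
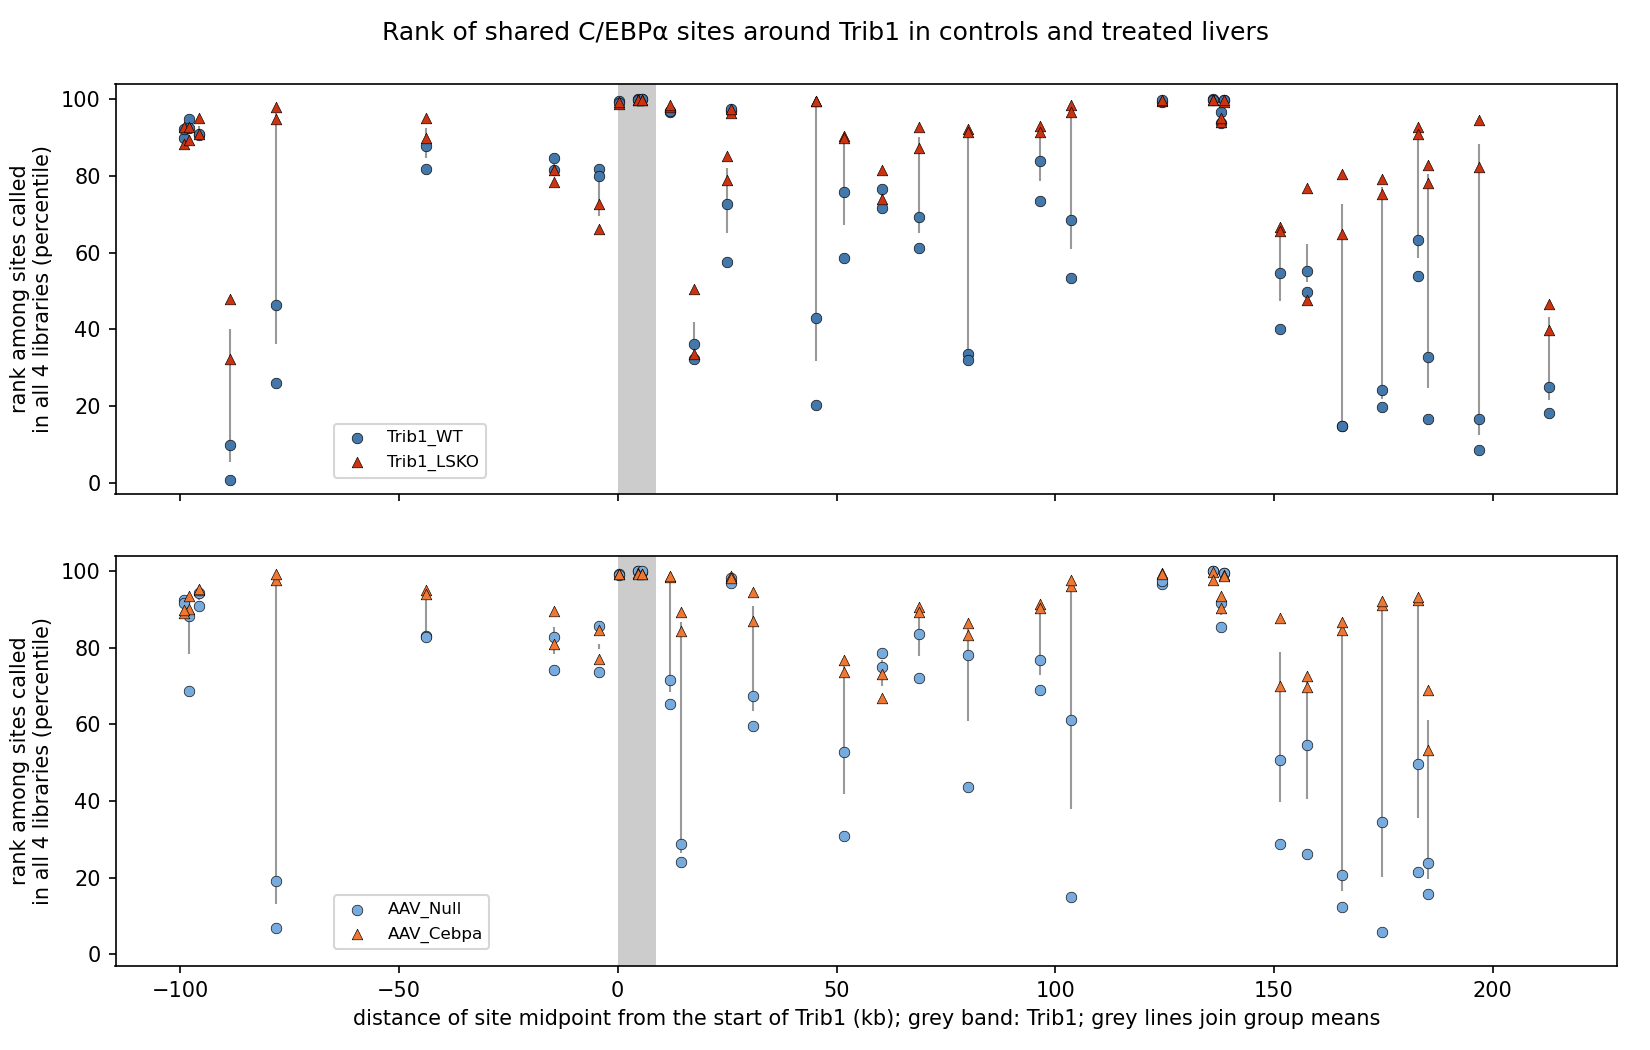
Rank of sites around Trib1 among the sites called in all 4 libraries of an experiment, with Trib1_LSKO and Trib1_WT above and AAV_Cebpa and AAV_Null below. The horizontal axis is the distance from the start of Trib1 in kb, circles are controls, triangles are treated libraries and grey lines join the group means. Both triangles stand above both circles at 19 of 34 sites in the upper panel (55.9%, against 22.8% of such sites in the series). In the lower panel they do so at 20 of 30 (66.7%, against 30.6%). Both triangles stand below both circles at 5 and 6 sites, and sites in the gene stay near 100.

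Among the 28 sites called in all 8 libraries, 14 ranked higher in both experiments (50.0%, against 14.5% of 24318 such sites) and 3 lower in both (10.7%, against 18.3%).

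Sites were last counted by distance from the gene, with no test of a trend. In the gene, the 3 sites were called in every library. Downstream, 2 of 15 sites within 50 kb, 3 of 16 from 50 to 100 kb and 4 of 25 beyond were gained in Trib1_LSKO, and 3, 6 and 6 of them with AAV_Cebpa. By the same rule, 3.15% of all sites in the series were gained in Trib1_LSKO and 19.5% with AAV_Cebpa. Within 50 kb downstream, the lists held 12 and 12 sites for Trib1_LSKO against 9 and 10 for Trib1_WT, and 11 and 11 for AAV_Cebpa against 6 and 9 for AAV_Null. From 50 to 100 kb downstream, Trib1_LSKO had 10 and 10 of 16 sites and Trib1_WT 6 and 5, and AAV_Cebpa 11 and 14 and AAV_Null 5 and 5. Beyond 100 kb, the numbers were 18 and 19, 13 and 15, 19 and 21, and 12 and 13 of 25 sites, in the same order of groups. Upstream within 50 kb, with 5 sites, all libraries had 3 to 5. Farther upstream, the numbers were 6 and 6, 5 and 5, 7 and 12, and 4 and 4 of 12 sites. By listed sites, the groups of both experiments were thus separate in each of the downstream ranges, and the numbers of sites are small. These counts are not scaled to list length, and the AAV_Cebpa lists are longer than those of AAV_Null. Scaled, the difference of AAV_Cebpa within 50 kb of the gene on either side was -0.13 per 10000.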

How the data were processed

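C/EBPα ChIP-seq peak lists of 8 mouse liver libraries, 2 in each of 4 groups, were used as the authors deposited them, with group and replicate taken from the sample titles. Chromatin was crosslinked in 1% formaldehyde, per the labels' protocols. Bowtie, HOMER and build mm9 were used, per the submitters' processing notes. Not given in the sources used here: versions, threshold, input and duplicate handling. The deposited files have no header and hold 1 signal value per peak, each peak 200 bp wide. The values were whole multiples of a step, within 0.051, for at least 99.87% of peaks in a list, so value divided by step was taken as tags and the inverse step as relative depth.

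Windows of 200 bp around peak midpoints were joined across libraries where they overlapped by at least 1 bp. Signal was used for ranks within a list and for tags, given as counted or divided by relative depth. Counts were set beside the share of all sites called by the same rule, and peaks per 10000 were compared by exact two-sided permutation over the 6 assignments of 4 libraries. Python 3.11.15, pandas 2.3.3 and NumPy 2.4.6 were used, and the joining, calling and step search were tested on simulated lists. Values are given for sites within 10 kb of Trib1, sites gained or lost, the 10 strongest called in all 8 libraries and the strongest of each library. Other sites that the text singles out (those with large rank differences) were chosen after their values were seen. The ranking among shared sites was added after the data had been examined, and the window and the lists were chosen with earlier results of these data known. Trib1 matched 0 entries of the RefSeq promoter table. Alternatives are in the closing section.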

Additional observations from a re-analysis of the deposited data

How the results depend on the processing

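Within 50 kb of the gene only 2 sites were gained in Trib1_LSKO, 4 gained and 1 lost in AAV_Cebpa, and 1 gained in both, and the difference in peaks per 10000 of AAV_Cebpa reversed to -0.13, while that of Trib1_LSKO was 0.53. That difference also moved by over 1.5 times with the strongest 50% of each list, to 5.53 for Trib1_LSKO and 4.43 for AAV_Cebpa, and with lists of equal length, to 4.42 for AAV_Cebpa. With presence from the strongest 50% of a list and absence from the full list, 5 sites were gained in Trib1_LSKO, 4 in both experiments, and 1 lost in AAV_Cebpa. Windows of 100 bp gave 1 site lost in Trib1_LSKO in place of 0, and windows of 500 bp, like the strongest 50% of each list, 1 lost in AAV_Cebpa in place of 2. The cause was not tested. Other counts lay within 1.5 times the main value under lists of equal length, a common signal minimum of 6.1, thinned tags (at least 8 after thinning) and a window widened by 100 kb on each side.

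Leaving out each library in turn gave 11 to 13 sites gained and 0 to 2 lost in Trib1_LSKO, 19 to 31 gained and 2 to 2 lost in AAV_Cebpa, and 7 to 9 gained in both. With a library left out the call rule asks for less, so these counts can rise by construction and are no check against a fall. The 31 came without AAV_Cebpa replicate 1, which leaves replicate 2, the longest list, alone. The 2 lost in Trib1_LSKO came without Trib1_WT replicate 1 and again without Trib1_LSKO replicate 2. Differences in peaks per 10000 were 2.58 to 2.79 for Trib1_LSKO and 0.88 to 1.90 for AAV_Cebpa, the 0.88 without AAV_Cebpa replicate 1. Shared sites ranked higher numbered 20 to 25 and 21 to 25, and those ranked lower 6 to 10 and 6 to 7. Here too fewer libraries had to be in order, which favours higher counts. The 10 came without Trib1_LSKO replicate 2, and 8 were lower without either Trib1_WT library, in place of 5. With tags thinned, 17 of 33 and 18 of 30 shared sites ranked higher.

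The labels give no link between libraries of the same replicate number. Rank differences between replicates 1 and 2 correlated across shared sites at 0.14 between Trib1_LSKO and Trib1_WT and at -0.07 between AAV_Cebpa and AAV_Null. A replicate block left the counts at 10, 0, 19, 2 and 7 and the differences at 2.69 and 1.39 by construction, with an exact permutation p of 0.5, the smallest that 2 pairs allow. Sites with few tags, such as those at 11 to 17, lie near the weakest listed peak, and their presence is uncertain at this depth.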

Other observations

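Windows of 320 kb placed side by side over the genome, aligned to the one around Trib1, held a median of 12 sites in 7256 windows with at least 1. The Trib1 window, with 76, was among the 2 with as many or more. When windows could start at any site, other positions reached 85 sites, 31 called in all 8 libraries, 10 gained in Trib1_LSKO, 21 gained in AAV_Cebpa and 7 gained in both, against 76, 28, 10, 19 and 7 around Trib1. Of the starting positions that do not overlap the Trib1 window, 66 held as many sites and 11 as many called in all 8 libraries. As many gained in AAV_Cebpa were found from 28. As many gained in Trib1_LSKO were found from 2, and as many gained in both from 2. These counts describe the window, which was chosen with such results known, and are no test.

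Sites listed in every library but 1 numbered 6 around Trib1. In 4 of these, at 8.7, 16.2, 36.6 and 204.0 kb downstream, the missing library was AAV_Null replicate 1, the shallowest.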
